A study of Mus musculus with 23 samples.

Results

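The collagen genes of the mouse lung were described at transcript level in mice that had inhaled bacterial lipopolysaccharide (LPS) and in mice that were also given alpha1-antitrypsin (AAT). They were taken as every row of the count table whose Ensembl ID has a protein-coding symbol of the form Col, number, a, number in GENCODE mouse release M21, which gave 44 genes out of 41388. The 23 RNA-seq libraries came from whole lungs of as many male Balb/c mice, whose age the labels do not give. Mice of the air group (n = 3) breathed clean air, and mice of the LPS group (n = 5) breathed an LPS aerosol made at 0.21 mg/ml, each for 10 min on 3 days. The other groups inhaled the same LPS and were then injected with human AAT (4 mg/kg, intraperitoneally, 1 h after every aerosol), as the native protein (LPS+nAAT, n = 5), an oxidized form (LPS+oxAAT, n = 5) or a recombinant form (LPS+recAAT, n = 5). Saline was the vehicle, and tissue was collected 6 h after the final dose, so the values describe an early time after a short exposure. AAT circulates in plasma as the main inhibitor of neutrophil elastase, and the study compared its forms against LPS alone.

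Collagens are secreted or membrane proteins with a triple helix wound from chains that are often products of different genes. Fibrillar collagens form the tensile fibrils of airway walls, vessels and alveolar septa, type IV collagens form the sheets of basement membranes under epithelium and endothelium, and type VI collagens form beaded filaments between fibrils and basement membranes. Others sit on the surface of fibrils (FACIT, fibril-associated collagens with interrupted triple helices), anchor epithelium to the matrix, or span the cell membrane. In the lung most of the fibrillar chains are made by fibroblasts and related mesenchymal cells, whereas type IV chains are also made by endothelial cells and by alveolar epithelium. The 44 genes comprised 11 fibrillar, 6 type IV, 6 type VI and 9 FACIT members, 4 network and anchoring members, 2 multiplexins, 4 transmembrane members and 2 others.

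The 6 type IV genes lie in 3 head-to-head pairs, and the starts of Col4a1 and Col4a2, the main collagen transcripts of these lungs, are 21 bp apart on chromosome 8. Those of Col4a4 and Col4a3 are 72 bp apart on chromosome 1, and those of Col4a6 and Col4a5 are 1309 bp apart on the X chromosome. The shared start regions are shown because the paired genes are set side by side in the results. The promoter windows run from 250 bases before to 50 bases after a start, from RefSeq on GRCm38.p6, each written on the strand of the named gene. For Col4a1 (chr8:11312777-11313076, minus strand) capitals mark the 78 bases that also belong to the window of Col4a2, which is read from the other strand. For Col4a4 (chr1:82586800-82587099, minus strand) capitals mark the 71 bases that lie between its start and that of Col4a3.
Col4a1: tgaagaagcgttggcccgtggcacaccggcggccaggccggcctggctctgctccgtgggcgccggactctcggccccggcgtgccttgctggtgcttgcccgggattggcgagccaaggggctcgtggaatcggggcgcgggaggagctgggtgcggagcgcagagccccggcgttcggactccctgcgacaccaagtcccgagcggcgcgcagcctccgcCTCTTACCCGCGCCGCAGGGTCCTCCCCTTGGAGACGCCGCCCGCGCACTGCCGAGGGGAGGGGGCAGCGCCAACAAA
Col4a4: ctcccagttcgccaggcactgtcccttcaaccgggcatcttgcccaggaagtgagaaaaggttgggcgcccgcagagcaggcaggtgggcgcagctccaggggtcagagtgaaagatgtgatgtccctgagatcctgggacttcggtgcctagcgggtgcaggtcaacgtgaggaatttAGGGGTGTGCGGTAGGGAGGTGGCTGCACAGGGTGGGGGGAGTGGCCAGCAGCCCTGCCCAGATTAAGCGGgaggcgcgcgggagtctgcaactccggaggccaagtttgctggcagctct
The Col4a1 window is rich in G and C (74.0%), against 63.3% for that of Col4a4. On either strand the Col4a1 window holds 1 CCAAT and 1 GGGCGG, the letters of the CCAAT box and the GC box, and the Col4a4 window holds neither. The letters TATAAA, the core of a TATA box, are in neither window. Of 32851 mouse promoter windows of the same 300 bases, 37.4% hold CCAAT, 35.7% hold GGGCGG and 13.6% hold TATAAA. Windows were found for 35 of the 44 collagen genes, of which 13 hold CCAAT, 22 hold GGGCGG and 5 hold TATAAA. Some of these genes have several windows and count if any of them holds the letters, whereas the shares above are per window. A match of letters is a description and not evidence of binding.

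Depth ran from 14.8 to 47.9 M gene counts per library. The libraries form 2 sets, which no label mentions. In the 15 libraries of the first set counts of mt-Nd6, the mitochondrial gene transcribed against the direction of those around it, came to 0.34% to 1.14% of mt-Nd5 counts, and in the 8 libraries of the second to 3.39% to 4.50%. All 5 LPS+recAAT libraries and 3 of LPS+oxAAT (5103, 5104 and 5105) made up the second set, so a comparison of LPS+recAAT with LPS+nAAT, LPS or air is also one between sets. A fit with the set as a term separates the 2 only through the LPS+oxAAT libraries, of which 2 are of the first set. Markers of alveolar type 2 cells, which define lung tissue, summed to 22100 to 31100 CPM (counts scaled to a common library size) in every library, and heart muscle markers to 43.3 to 782 CPM. The LPS label was checked with Saa3 and Lcn2, acute-phase genes, which were higher in LPS than in air by 5.90 and 3.09 on the log2 scale (edgeR quasi-likelihood test, adjusted p = 1.77e-11 and 8.21e-12).

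Of the 44 collagen genes, 38 passed the filter on low counts. The other 6, Col2a1, Col9a1, Col9a2, Col10a1, Col11a1 and Col19a1, reached at most 10 counts in any library. Several of these are chains of cartilage collagens, and the summed CPM of 8 cartilage markers was 1.17 to 2.13. Levels between genes were compared as CPM per kb of exon. Col4a1 had the highest level at 144 CPM per kb over all libraries, followed by Col4a2 at 126, Col6a1 at 77.1, Col3a1 at 47.7 and Col1a1 at 38.1. Col4a3 (35.6), Col1a2 (33.5), Col6a2 (28.1), Col4a4 (26.8) and Col23a1 (25.0) came next. From Col3a1 to Col1a2 and from Col6a2 to Col23a1, each gene and the next in order differed by less than the SD of either between mice of 1 group on the log2 scale (0.16 to 0.38), and Col4a3 lay above Col1a1 in air, LPS+nAAT and LPS+recAAT. Exon lengths are those of all annotated exons together, so a gene with many long rare exons, such as Col1a2, has its level per kb understated. Type IV genes held 50.5% ± 1.96 (SD, n = 3) of the summed collagen CPM per kb in air, 50.2% ± 1.66 (n = 5) in LPS, 53.0% ± 0.808 in LPS+nAAT, 50.7% ± 2.90 in LPS+oxAAT and 48.7% ± 3.78 in LPS+recAAT. Fibrillar genes held 20.1% ± 0.422 in air and 20.5% ± 1.47 in LPS. Type VI genes held 15.5% ± 0.801 in air and 16.4% ± 1.21 in LPS.

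**Figure D1:**
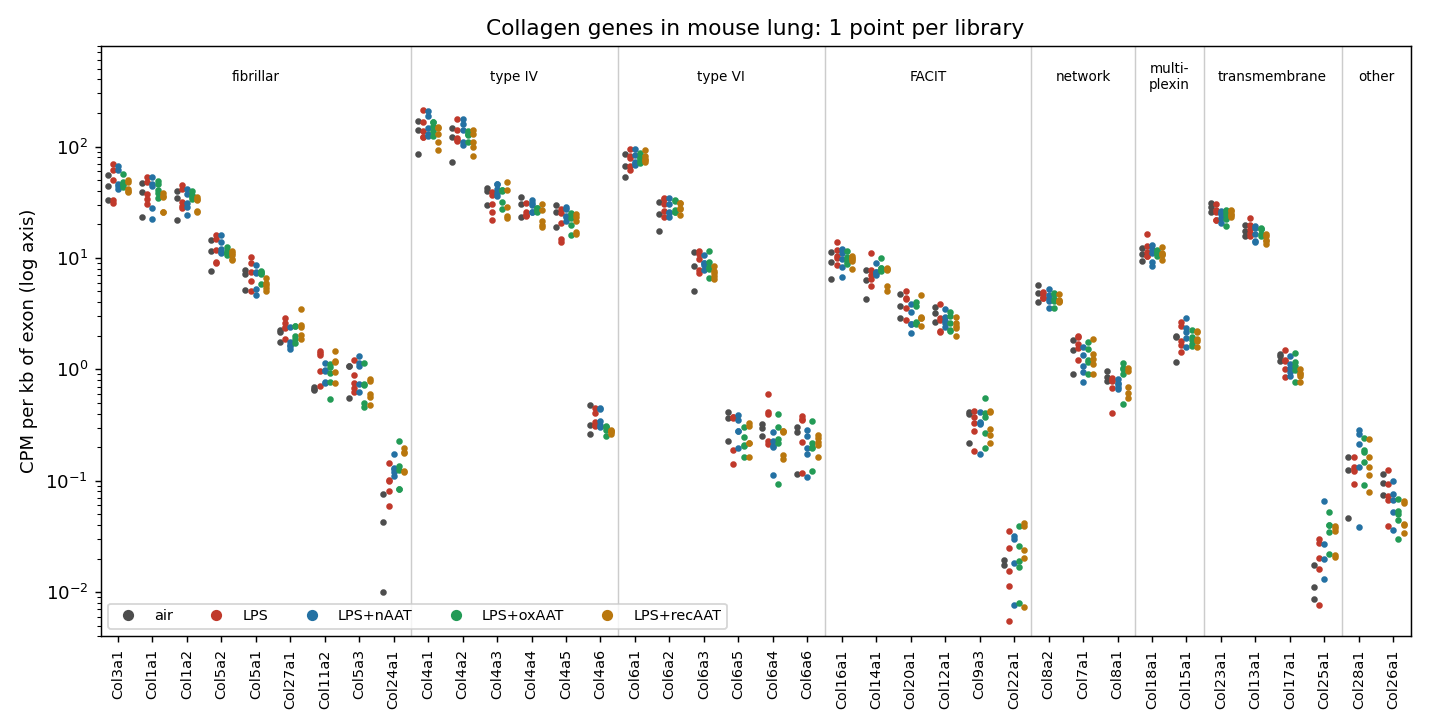
Level of each of the 38 tested collagen genes in each of the 23 libraries, in CPM per kb of exon on a log axis, by class and coloured by group. Col4a1 and Col4a2 lie at the top, at 144 and 126 CPM per kb on average, and the points of different groups lie over each other for these and the other abundant genes. Libraries with no count of a gene (2 for Col22a1, 1 for Col25a1) are not drawn.

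Within groups the collagen genes varied more from mouse to mouse than most genes of like level. Over the 13 collagen genes with a mean of at least 100 CPM the median SD within groups was 0.29 on the log2 scale, against 0.16 over all 2293 genes at that level, given as a description with no test. The summed CPM of the 44 genes was 3600, 5270 and 6230 in the 3 air libraries and 4340, 4540, 5110, 6060 and 7050 in the 5 LPS libraries. The lowest air library (2105) and the highest LPS library (1104) were therefore the extremes of all 23, and the groups overlapped. Air 2105 also had the lowest share of mt-Nd6 (0.34%) and LPS 1104 the highest share of ambiguous reads (1.39%), whose part in these sums was not tested. The same 2 libraries stood at the ends for Col4a1, at 636 and 1580 CPM. In bulk lung, fewer cells of a type and less RNA per cell cannot be told apart, so these sums say nothing of cell number.

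**Figure D2:**
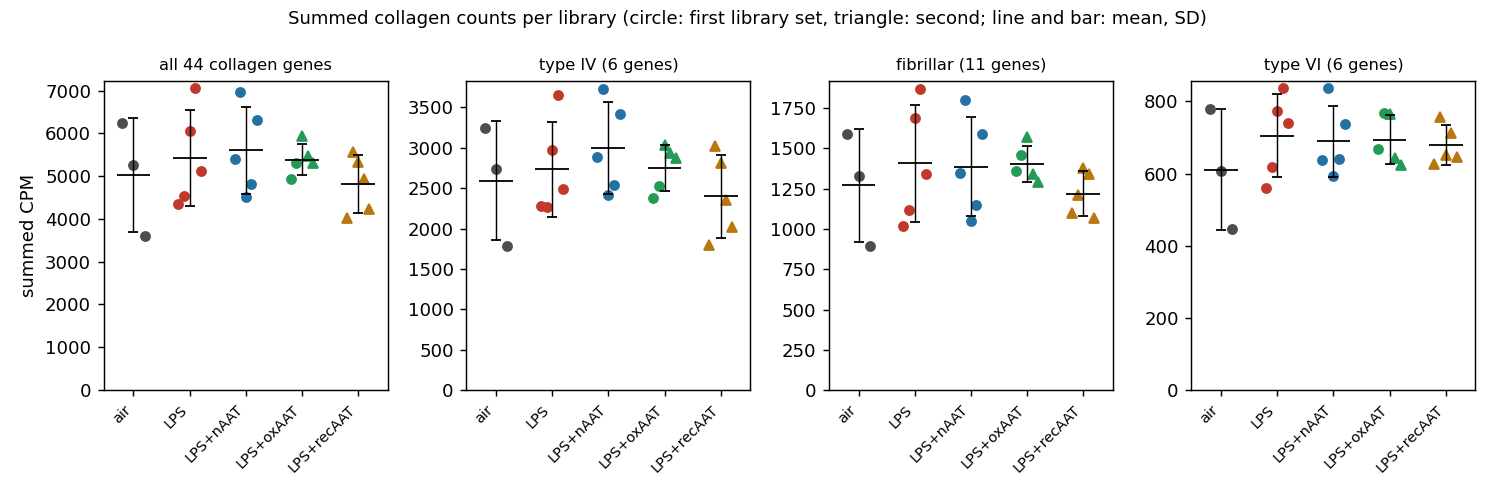
Summed CPM of all 44 collagen genes and of the type IV, fibrillar and type VI classes in each library, with the mean and SD of each group; circles are libraries of the first set and triangles of the second. For all collagens the air libraries (3600 to 6230 CPM) overlap the LPS libraries (4340 to 7050 CPM).

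No collagen gene was called between LPS and air after aerosols on 3 days. Of the 38 tested genes 0 had an adjusted p under 0.05 in edgeR's quasi-likelihood test, while 4.39% of all 17148 genes tested were called. At an unadjusted p under 0.05 there were 2 collagen genes, Col11a2 and Col24a1, against 18.1% of all genes, and the DESeq2 Wald test called 1, Col11a2, beside 6.91% of all genes. With the library set as a term edgeR called 1, again Col11a2, and 5.37% of all genes. Estimates were higher in LPS for 26 genes and lower for 12, with a median log2 fold change of 0.16 beside -0.01 over all genes. Without air replicate 2105 that median was -0.04 and without air replicate 2101 it was 0.32, so its sign depends on single air libraries. With each library's curve of counts against GC content removed, the median was 0.07 and 23 estimates were higher in LPS.

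The precision allows a bound on what could have been missed. For all 18 collagen genes with a mean of at least 50 CPM, the 95% interval of the fold change in LPS against air lay within 2-fold in either direction, from 0.606-fold (lower bound of Col4a3) to 1.63-fold (upper bound of Col14a1). For 8 of the 18 it lay within 1.5-fold. Over all 38 tested genes it lay within 2-fold for 30, and the remaining 8 were genes of low count for which a larger difference was not excluded at this depth and number of mice.

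**Figure D3:**
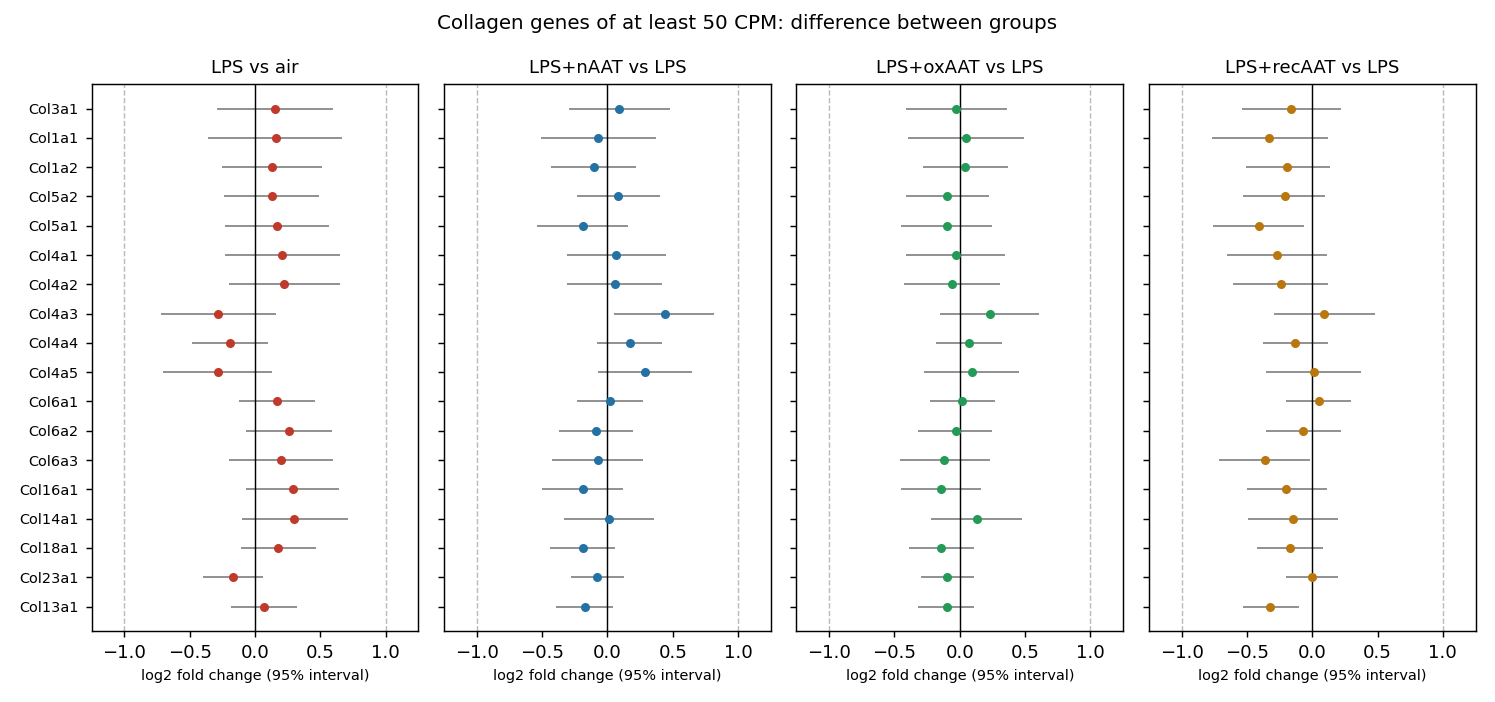
Log2 fold change (points) with its 95% interval (lines) for the 18 collagen genes of at least 50 CPM in LPS against air and in each AAT group against LPS; dashed lines mark a 2-fold difference. No interval reaches a dashed line, and most cross 0.

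The chains of type I and III collagen, which build most of the interstitial fibrils, did not differ beyond the spread between mice. Col1a1 was at 306, 258 and 152 CPM in air and at 201, 245, 317, 347 and 220 CPM in LPS, which is a log2 fold change of 0.16 ± 0.25 (SE; edgeR adjusted p = 0.802). The lowest value of Col1a1 was again in air 2105, and all LPS values but 2 lay inside the range of the air values. Col3a1 was at 541, 433 and 322 CPM in air and at 307, 322, 600, 678 and 496 CPM in LPS, and its log2 fold change was 0.15 ± 0.22 (adjusted p = 0.767). For Col1a2, the partner chain of Col1a1, the value was 0.13 ± 0.18 (adjusted p = 0.769). Col5a1 and Col5a2, whose type V chains limit fibril diameter, gave 0.17 ± 0.20 and 0.13 ± 0.18 (adjusted p = 0.707 and 0.764).

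Among the type IV chains of basement membranes, estimates of the 2 widely expressed chains and of the chains of the alveolar network pointed in opposite directions, with none called. Without air replicate 2105 the estimates for Col4a1 and Col4a2 were -0.03 and -0.02, so their sign rests on that library. Col4a1 was at 1270, 1040 and 636 CPM in air and at 905, 910, 1240, 1580 and 1030 CPM in LPS (log2 fold change 0.21 ± 0.21, edgeR adjusted p = 0.668). Its partner Col4a2 gave 0.22 ± 0.21 (adjusted p = 0.624). Col4a3 was at 424, 397 and 298 CPM in air and at 256, 217, 366, 387 and 306 CPM in LPS (-0.28 ± 0.21, adjusted p = 0.525). The groups overlapped for each of these genes. Col4a4 gave -0.19 ± 0.14 and Col4a5 gave -0.28 ± 0.20 (adjusted p = 0.512 and 0.492), and these 3 chains together form the network found in alveolar and glomerular basement membranes. Exons of a noncoding gene on the opposite strand, C430014B12Rik, cover 5.65% of the Col4a3 exons, and the strand setting of the counting is not given in the sources used here. Col4a6 was near 3 CPM in both groups (0.05 ± 0.19, adjusted p = 0.929).

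No type VI chain and no collagen of fibril surfaces or membranes was called either. Col6a1 was at 374, 291 and 234 CPM in air and at 271, 293, 348, 412 and 362 CPM in LPS (log2 fold change 0.17 ± 0.14, edgeR adjusted p = 0.570). For Col6a2 and Col6a3 the values were 0.26 ± 0.16 and 0.20 ± 0.19 (adjusted p = 0.413 and 0.651). Col14a1, a FACIT collagen, gave 0.30 ± 0.20 (adjusted p = 0.451). Col15a1 and Col18a1, multiplexins of basement membrane zones, of which Col18a1 is the precursor of endostatin, gave 0.22 ± 0.21 and 0.18 ± 0.14 (adjusted p = 0.623 and 0.547). Col8a1, a short-chain network collagen of vessels, gave -0.30 ± 0.24 (adjusted p = 0.554). Among transmembrane members, Col13a1 gave 0.07 ± 0.12, Col17a1, a component of hemidesmosomes, gave -0.17 ± 0.18, and Col23a1 gave -0.17 ± 0.11 (adjusted p = 0.812, 0.671 and 0.444).

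Col11a2, a chain best known from cartilage fibrils and named here after its value was seen, came nearest to a call. It was at 4.73, 4.57 and 4.50 CPM in air and at 6.65, 9.31, 4.83, 9.56 and 9.99 CPM in LPS, so every LPS library lay above every air library, as was so for 11.3% of all genes. The log2 fold change was 0.81 ± 0.24 (edgeR adjusted p = 0.0598). It passed with DESeq2 (adjusted p = 0.0177), with the library set as a term (edgeR, 0.0485), without LPS replicate 1103 (0.0167) and without LPS+oxAAT replicate 5104 (0.0444). Blocking on the final digit of the mouse number also gave a pass (0.93, adjusted p = 0.0188). It did not pass under any other of the 32 alternatives, where the edgeR adjusted p reached 0.174. Of 23 fits that each left out 1 library, 2 held a call. Against air, Col11a2 gave 0.47 in LPS+nAAT, 0.40 in LPS+oxAAT and 0.72 in LPS+recAAT (edgeR adjusted p = 0.343, 0.494 and 0.0805). Col2a1, its partner in cartilage fibrils, reached at most 10 counts in any library.

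None of the collagen genes was called between native AAT with LPS and LPS alone. In LPS+nAAT 0 of 38 were called in edgeR and 0 in DESeq2, against 0.595% and 3.10% of all genes, with 5 at an unadjusted p under 0.05 (14.7% of all genes). Those 5 are Col4a3 with a higher estimate and Col6a4, Col7a1, Col20a1 and Col27a1 with lower ones, of which all but Col4a3 are named after their values were seen. Col4a3 was at 384, 461, 357, 418 and 458 CPM in LPS+nAAT, against 217 to 387 CPM in LPS (log2 fold change 0.44 ± 0.19, edgeR adjusted p = 0.268). Col27a1, a fibrillar chain, had the smallest p, with 23.3 CPM in LPS+nAAT and 31.5 CPM in LPS on average (-0.43 ± 0.15, adjusted p = 0.182). Col7a1, the anchoring fibril collagen beneath epithelia, gave -0.54 ± 0.22 (adjusted p = 0.246). The median over the 38 genes was -0.03, and for the 18 genes of at least 50 CPM all intervals lay between 0.689-fold and 1.77-fold.

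The oxidized form gave 0 collagen genes called in edgeR and 0 in DESeq2 against LPS, while 4.71% and 7.34% of all genes were called. At an unadjusted p under 0.05 there were also 0 collagen genes, where 20.2% of all genes passed. Col1a1 was at 269, 322, 305, 250 and 226 CPM in LPS+oxAAT, all within the range of the LPS libraries (log2 fold change 0.05 ± 0.21, edgeR adjusted p = 0.929). Col4a1 was at 927, 1020, 1250, 1230 and 1140 CPM, also within that range (-0.03 ± 0.18, adjusted p = 0.955). Intervals of the 18 genes of at least 50 CPM lay between 0.725-fold and 1.53-fold.

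The recombinant form gave 0 collagen genes called in edgeR against LPS and 1 in DESeq2, against 8.49% and 11.3% of all genes. There were 8 collagen genes at an unadjusted p under 0.05, beside 23.7% of all genes, and 28 of the 38 estimates were lower in LPS+recAAT. The median log2 fold change was -0.17, and it was -0.07 after each library's curve of counts against GC content was removed, when 1 gene had an unadjusted p under 0.05. Col13a1, a transmembrane collagen known from the neuromuscular junction, had the smallest p. It was at 72.3, 77.1, 90.5, 105 and 83.5 CPM in LPS and at 61.7, 76.1, 67.0, 65.8 and 72.8 CPM in LPS+recAAT, with a log2 fold change of -0.32 ± 0.10 (edgeR adjusted p = 0.0587). The groups overlapped in part, and the gene passed with DESeq2 (adjusted p = 0.0429), with a stricter filter (0.0472) and without LPS replicate 1101 (0.0451). With the library set as a term the edgeR adjusted p was 0.671, in a fit that called 0% of all genes.

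Of 9 tested fibrillar genes 7 had lower and 2 higher estimates in LPS+recAAT than in LPS, and of 6 type VI genes 5 had lower and 1 higher, with 0 called. Col5a1 averaged 48.6 CPM against 64.5 CPM in LPS (log2 fold change -0.41 ± 0.17, edgeR adjusted p = 0.136). Col6a3 averaged 88.0 against 113 CPM (-0.36 ± 0.17, adjusted p = 0.187) and Col1a1 212 against 266 CPM (-0.33 ± 0.21, adjusted p = 0.366). Col17a1 gave -0.37 ± 0.16 and Col4a6 -0.40 ± 0.17 (adjusted p = 0.153 and 0.146). Over 31 alternatives the values ran from -0.52 to -0.28 for Col5a1, from -0.44 to -0.07 for Col6a3 and from -0.41 to -0.14 for Col1a1. For Col17a1 they ran from -0.45 to -0.12 and for Col4a6 from -0.51 to -0.30, with no call for any of these genes. For Col4a6 the 2 groups did not overlap in CPM, as was so for 7.46% of all genes. Intervals of the 18 genes of at least 50 CPM lay between 0.587-fold and 1.39-fold. Between the library sets themselves, judged within LPS+oxAAT, 0 collagen genes were called in edgeR and 0 in DESeq2, beside 0.542% and 2.47% of all genes. At an unadjusted p under 0.05 there were 5 collagen genes, against 17.2% of all genes. This contrast rests on the few LPS+oxAAT libraries of each set, and the part of the set in the lower estimates was not tested.

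Against air, each of the 3 AAT groups had 1 collagen gene called, Col24a1, a minor fibrillar chain named after its value was seen. The share of all genes called was 5.62% for LPS+nAAT, 3.76% for LPS+oxAAT and 6.83% for LPS+recAAT, so 1 of 38 was not above the background. Col24a1 was at 0.325, 0.584 and 0.0756 CPM in air, from 9, 18 and 2 counts. It was at 0.619, 0.751, 0.775, 0.453 and 1.10 CPM in LPS, at 0.838 to 1.32 CPM in LPS+nAAT, at 0.640 to 1.74 CPM in LPS+oxAAT and at 0.916 to 1.49 CPM in LPS+recAAT. No library had more than 57 counts, every AAT library lay above every air library, and LPS overlapped air. Non-overlap with air was seen for 13.2%, 9.88% and 16.1% of all genes in these 3 comparisons.

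The log2 fold change of Col24a1 against air was 1.59 ± 0.43 in LPS+nAAT, 1.57 ± 0.43 in LPS+oxAAT and 1.83 ± 0.43 in LPS+recAAT (edgeR adjusted p = 0.0269, 0.0395 and 0.00826). In LPS alone it was 1.13 ± 0.44 (adjusted p = 0.157), and each AAT group against LPS gave 0.43 to 0.70 with no call, so an effect of AAT on the gene was not shown. The 3 comparisons share the air libraries. Without air replicate 2105, the library of 2 counts, the values were 1.14, 1.12 and 1.39 and none passed (adjusted p = 0.147, 0.242 and 0.0644). Without air replicate 2101 the call was lost in LPS+nAAT and LPS+oxAAT (adjusted p = 0.104 and 0.141). Leaving out LPS+nAAT replicate 4102 ended it in LPS+nAAT (0.0671), and leaving out LPS+oxAAT replicate 5103, 5104 or 5105 ended it in LPS+oxAAT (0.069, 0.0603 and 0.127). With the library set as a term the values in LPS+oxAAT and LPS+recAAT were 0.93 and 0.87 (adjusted p = 0.532 and 0.537), while in LPS+nAAT, all of the first set, the call held (adjusted p = 0.0165). It was lost in LPS+nAAT when only the first set was fitted (1.59, adjusted p = 0.0561) or only the 2 groups compared (1.59, adjusted p = 0.0763), and in LPS+oxAAT as well (adjusted p = 0.705 and 0.193). With the set as a term 5.88% of all genes were called in LPS+nAAT, 1.96% in LPS+oxAAT and 1.62% in LPS+recAAT.

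**Figure D4:**
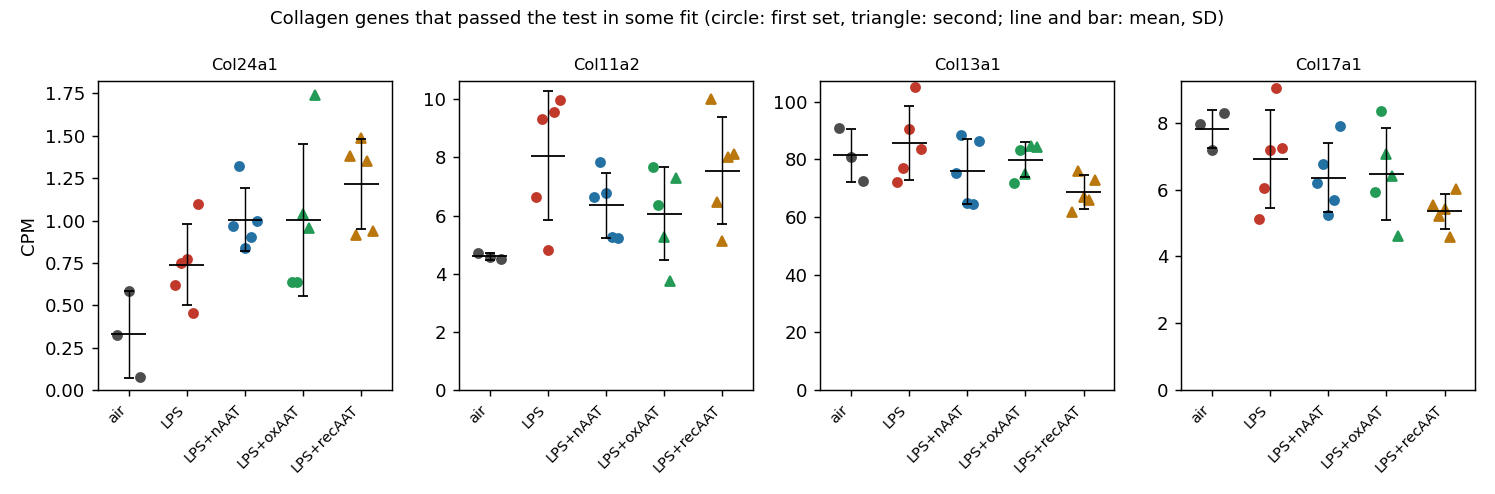
CPM of Col24a1, Col11a2, Col13a1 and Col17a1 in each library, with the mean and SD of each group; circles are libraries of the first set and triangles of the second. The air libraries of Col24a1 lie at 0.0756 to 0.584 CPM, below all AAT libraries, and those of Col11a2 at 4.50 to 4.73 CPM, below all LPS libraries.

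Between the AAT forms no collagen gene was called, by edgeR or by DESeq2. Of 38 genes 0 were called in LPS+oxAAT against LPS+nAAT (0.344% of all genes), 0 in LPS+recAAT against LPS+nAAT (1.93%) and 0 in LPS+recAAT against LPS+oxAAT (0.0175%), with 1, 4 and 1 at an unadjusted p under 0.05, where 11.8%, 14.9% and 2.90% of all genes passed. DESeq2 called 1.41%, 3.51% and 0.0467% of all genes. Bounds of the 18 genes of at least 50 CPM ran from 0.663-fold to 1.47-fold, from 0.602-fold to 1.23-fold and from 0.569-fold to 1.22-fold. A difference of 2-fold thus lay outside every one of these intervals, and 17, 10 and 13 of the 18 intervals also lay within 1.5-fold in either direction. These intervals come from the fit without the library set. LPS+recAAT against LPS+nAAT is also a comparison of the second set with the first, and the other 2 comparisons are so in part. Form and set cannot be told apart there. With the set as a term edgeR called 0 collagen genes in each, beside 0.00583%, 0% and 0.0117% of all genes.

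Chains that are wound into the same molecule were compared as ratios of CPM per kb within a library, which do not depend on how libraries are scaled. The height of a ratio does depend on the exon lengths, taken over all annotated exons, so it is not a count of chains per molecule. Col6a1 averaged 338 CPM over 4380 bp of exon and Col6a2 234 CPM over 8326 bp. Col1a1 averaged 250 CPM over 6563 bp and Col1a2 416 CPM over 12426 bp. Col4a1 over Col4a2, the pair with the shared start region shown above, was 1.15 ± 0.07 (SD, n = 23) with a range of 1.02 to 1.26, so Col4a1 was higher per kb in every library. Within groups the log2 ratio had an SD of 0.09, while Col4a1 and Col4a2 had SDs of 0.32 and 0.31, so mice with more of one chain had more of the other. Col6a1 over Col6a2 was 2.75 ± 0.18 (2.37 to 3.05), also with an SD of 0.09 within groups. The ratio was looser for Col1a1 over Col1a2, at 1.13 ± 0.13 (0.91 to 1.47, within-group SD 0.17). For Col4a3 over Col4a4, the other pair with close starts, it was 1.32 ± 0.18 (0.90 to 1.62, within-group SD 0.20).

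The ratio of Col4a3 to Col4a1, which sets the alveolar network against the general one, gave the widest difference between LPS and air of the 9 ratios computed. It was 0.25 to 0.35 in air (0.30 ± 0.05), 0.18 to 0.22 in LPS (0.20 ± 0.02), 0.22 to 0.32 in LPS+nAAT (0.27 ± 0.04), 0.20 to 0.27 in LPS+oxAAT (0.24 ± 0.03) and 0.22 to 0.32 in LPS+recAAT (0.26 ± 0.04). All air libraries lay above all LPS libraries, a log2 difference of -0.53 for LPS against air. In an exact permutation test of the log2 ratio, two-sided, this gave p = 0.0357, the smallest that 3 against 5 allows. The adjusted p over 36 tests (9 ratios in 4 comparisons) was 0.214, so the difference did not pass after adjustment. With 3 against 5 libraries it could pass only if most of the 36 tests had a p as small. LPS+nAAT against LPS gave 0.39 (exact permutation p = 0.0159), LPS+oxAAT 0.25 (p = 0.0476) and LPS+recAAT 0.32 (p = 0.0317), each also with an adjusted p of 0.214. In the first set alone LPS+oxAAT gave 0.16 (exact permutation p = 0.381). The other 4 of the 8 tests with an exact permutation p under 0.05 also had an adjusted p of 0.214. They were Col6a1 over Col6a2 (0.11) and Col5a1 over Col5a2 (-0.29) in LPS+nAAT against LPS, and Col5a1 over Col5a2 (-0.19) and Col6a3 over Col6a2 (-0.29) in LPS+recAAT against LPS. These comparisons share the LPS libraries, and the difference for LPS against air ranged from -0.65 to -0.40 as single libraries were left out. Of 5 markers of alveolar type 1 cells edgeR called 1 in LPS against air, Cav1 (-0.43, adjusted p = 0.00686), where 4.39% of all genes were called. The median of the 5 was -0.07, beside -0.01 over all genes, and the part of these cells in the ratio was not tested. The summed CPM of those 5 markers was 4900 to 6340 in air and 4020 to 6090 in LPS.

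**Figure D5:**
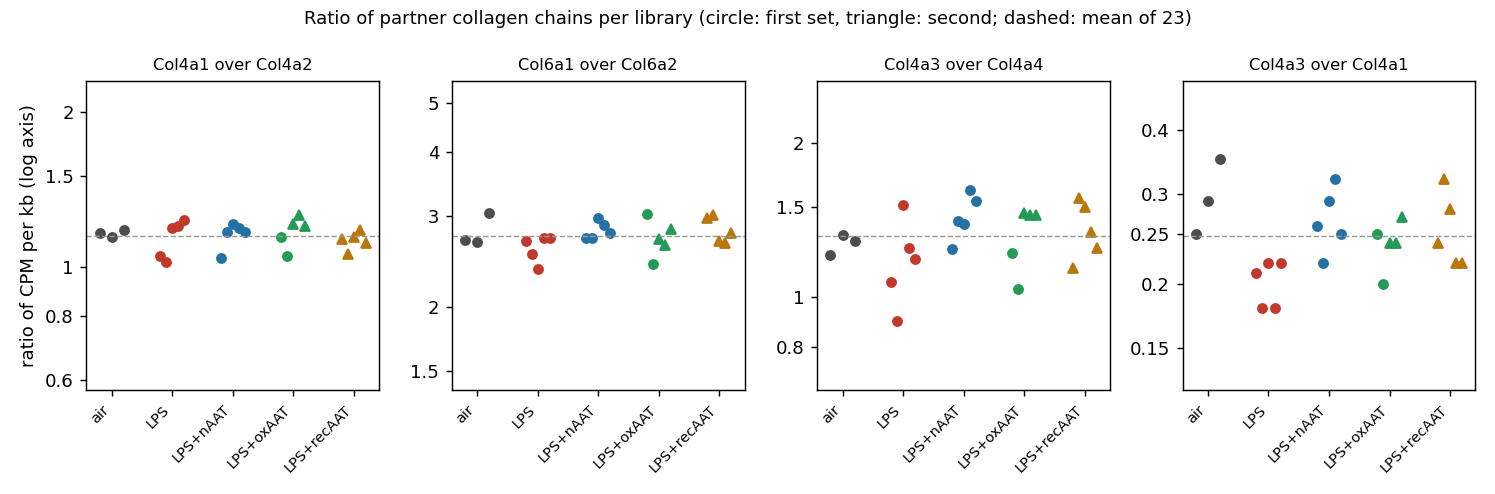
Ratio of CPM per kb for pairs of collagen chains in each library, on log axes; the dashed line is the mean of 23 libraries, circles are of the first set and triangles of the second. Col4a1 over Col4a2 stays between 1.02 and 1.26, while Col4a3 over Col4a1 is 0.25 to 0.35 in air and 0.18 to 0.22 in LPS.

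Genes that fold, cut, bind and degrade collagen were followed in lists chosen with earlier results of these data known. In LPS against air their counts stand beside 4.39% of all genes called in edgeR and 6.91% in DESeq2. At an unadjusted p under 0.05 in edgeR 18.1% of all genes passed. Of 19 chaperones and modifying enzymes of the endoplasmic reticulum, 1 was called, Plod2, a lysyl hydroxylase that prepares crosslinks, which fell from 70.4 ± 1.05 CPM (SD, n = 3) to 51.2 ± 5.06 CPM (n = 5; log2 fold change -0.46 ± 0.09, edgeR adjusted p = 0.00251). Of 13 tested genes for propeptide processing and crosslinking 1 was called, Pcolce2, an enhancer of procollagen C-proteinase, which was lower in LPS (-0.40 ± 0.11, adjusted p = 0.0460). DESeq2 called 3 and 1 in these lists, adding Plod3 and Colgalt2. Of 10 collagen receptors 0 were called in edgeR and 0 in DESeq2, with 0 at an unadjusted p under 0.05, and of 17 other basement membrane genes 0, 0 and 1. The median log2 fold changes of these 4 lists were 0.04, -0.02, -0.01 and 0.09, beside -0.01 over all genes.

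Of the genes for collagen breakdown, Ctsk, which encodes the collagen-cleaving protease cathepsin K, rose from 26.1 ± 2.03 CPM in air (24.4 to 28.3) to 81.2 ± 8.54 CPM in LPS (69.6 to 92.1), a log2 fold change of 1.64 ± 0.14 (edgeR adjusted p = 1.41e-08), and was the only one of 6 breakdown genes called in edgeR, while DESeq2 also called Mmp9 and Mmp14. It was at 100 ± 8.22 CPM in LPS+nAAT, 79.0 ± 14.1 CPM in LPS+oxAAT and 82.3 ± 9.85 CPM in LPS+recAAT, and was not called in any AAT group against LPS. Ctsk is also made by macrophages, and the source of its transcripts cannot be told from bulk lung. Of 15 genes of the TGF-beta pathway, which drives collagen transcription in fibrosis, 1 was called, Tgfbi, an extracellular protein that binds collagen (0.55 ± 0.12, adjusted p = 0.00818). Among 29 other interstitial matrix genes edgeR called 1, Aspn, a small proteoglycan that binds collagen fibrils, at 19.9 ± 2.51 CPM in air and 9.66 ± 3.73 CPM in LPS (-1.03 ± 0.26, adjusted p = 0.0197). In that list 8 had an unadjusted p under 0.05, where 18.1% of all genes passed. DESeq2, which called 6.91% of all genes, called Aspn and also Lum and Ogn, proteoglycans of the same family. Lum and Ogn gave -0.83 ± 0.27 and -0.81 ± 0.24 in edgeR (adjusted p = 0.0811 and 0.0538).

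Genes of these lists were also compared between each AAT group and LPS. Of all genes edgeR called 0.595% in LPS+nAAT, 4.71% in LPS+oxAAT and 8.49% in LPS+recAAT, and DESeq2 called 3.10%, 7.34% and 11.3%. In LPS+nAAT Lair1, an inhibitory collagen receptor of immune cells, was higher (12.5 ± 1.36 against 8.15 ± 2.06 CPM, log2 fold change 0.61 ± 0.14, edgeR adjusted p = 0.0391), as the only one of 10 receptors. Aspn was higher in LPS+oxAAT and LPS+recAAT by 1.03 ± 0.23 and 1.22 ± 0.23 (adjusted p = 0.0129 and 0.00205), and Ogn, another small proteoglycan, by 0.79 ± 0.21 and 0.74 ± 0.21 (0.0320 and 0.0293). Mmp13, an interstitial collagenase, was higher in LPS+oxAAT (1.15 ± 0.29, adjusted p = 0.0238), and Smad7, an inhibitor of TGF-beta signalling, in LPS+recAAT (0.39 ± 0.10, adjusted p = 0.0162). Aspn and Ogn were the 2 called of 29 matrix genes, Mmp13 the 1 of 6 breakdown genes and Smad7 the 1 of 15 TGF-beta genes. With the library set as a term, the edgeR adjusted p of each of these LPS+oxAAT and LPS+recAAT values was 0.803 or more. That fit called 0.0350% of all genes in LPS+oxAAT and 0% in LPS+recAAT against LPS. Nearly every gene lost its call there, so the loss does not tell the set from the AAT form. DESeq2 called further genes that edgeR did not. In LPS+nAAT these were Aspn (edgeR 0.83 ± 0.23, adjusted p = 0.0920) and Mmp8, a neutrophil collagenase (1.11 ± 0.30, 0.0892). Mmp8 spread widely between LPS+nAAT mice, at 8.63 ± 6.77 CPM (4.28 to 20.4), and was at 2.77 to 4.76 CPM in LPS. In LPS+oxAAT the further genes were Smad7 (edgeR 0.31 ± 0.10, adjusted p = 0.0723) and Tgfbr1, a TGF-beta receptor (0.50 ± 0.16, 0.0641). Lox, the crosslinking enzyme lysyl oxidase, was called by DESeq2 in both LPS+oxAAT and LPS+recAAT (0.72 ± 0.23 and 0.65 ± 0.23 in edgeR, adjusted p = 0.0685 and 0.0740).

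Markers of the cells that make collagen were set beside these values. Of 10 fibroblast, 8 smooth muscle and myofibroblast and 4 pericyte markers 0 were called in edgeR, with median log2 fold changes of -0.12, -0.15 and 0.00. At an unadjusted p under 0.05 (18.1% of all genes) there were 1, 0 and 1. DESeq2 (6.91% of all genes) called 1, 0 and 0, the 1 being Meox2 of the fibroblast list. Their summed CPM was 3820 to 4690 in air and 3310 to 4500 in LPS for fibroblasts, and 590 to 675 against 468 to 739 for smooth muscle. Of 6 mesothelial markers 1 was called in LPS against air, Msln (0.81 ± 0.23, edgeR adjusted p = 0.0410), where 4.39% of all genes were called. Of 5 endothelial markers 1 was called, Car4 (0.72 ± 0.11, edgeR adjusted p = 9.32e-05). The median log2 fold changes of the mesothelial and endothelial lists were 0.41 and 0.03, beside -0.01 over all genes. In LPS+recAAT against LPS the medians of endothelial, pericyte and other basement membrane genes were -0.24, -0.25 and -0.21, beside -0.17 for the collagen genes. For fibroblast, alveolar type 1 and alveolar type 2 markers they were 0.00, -0.05 and -0.18, and over all genes -0.01. Of the endothelial, pericyte and other basement membrane lists 0 genes were called by either tool, beside 8.49% (edgeR) and 11.3% (DESeq2) of all genes. At an unadjusted p under 0.05 these lists had 2, 2 and 5, where 23.7% of all genes passed. Of the 8 smooth muscle and myofibroblast markers (median -0.15) both tools called 1. That gene was Pdgfrb, a growth factor receptor of mesenchymal cells, which averaged 135 ± 29.8 CPM with LPS alone and fell to 90.3 ± 15.0 CPM with the recombinant form (-0.58 ± 0.14, edgeR adjusted p = 0.0126, and 0.613 with the library set as a term). Of 10 fibroblast markers edgeR called 1 in LPS+oxAAT, Fgf10 (0.54 ± 0.15, adjusted p = 0.0397, and 0.993 with that term), where 4.71% of all genes were called. DESeq2 called it in LPS+recAAT too (edgeR 0.46 ± 0.15, adjusted p = 0.0606). With that term edgeR called 0.0350% of all genes in LPS+oxAAT and 0% in LPS+recAAT against LPS. The part of cell makeup in the collagen values was not tested.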

How the data were processed

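RNA-seq counts of 23 mouse lungs in 5 groups were used. The authors deposited raw counts per Ensembl gene, not normalized. Libraries were stranded and poly(A)-selected, per the labels' protocols. The submitters' processing notes name build GRCm38 and the tools STAR 2.4.0.1, HTSeq 0.11.1, FastQC 0.11.8 and Trimmomatic (0.36 and 0.38). Neither the annotation release nor the strand setting of the counting is given in the sources used here. Symbols from GENCODE M21 named 40340 IDs and left 1048 unnamed, and 5 summary lines were left out.

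All 23 libraries entered 1 model with a mean per group (edgeR 4.0.16, quasi-likelihood F test, robust, TMM, filterByExpr). P-values are two-sided and Benjamini-Hochberg adjusted over 17148 genes, with calls made under 0.05, and they measure the spread between mice. The 95% intervals use the model's standard error. CPM values are TMM-scaled. The test was tested on simulated data. Ratios were tested with SciPy 1.17.1 and their alternatives were chosen after seeing the data. Alternatives included DESeq2 1.42.0, other filters, the library set and single libraries left out. Depth was 14.8 to 47.9 M counts, so only genes of a few CPM or less have counting error near the spread between mice.

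The members, classes and lists were chosen with earlier results of these data known. The named genes were a panel of 20 lung collagens, collagens called in any of 4 main comparisons, the 5 of highest level per kb, and up to 4 called members per list. Mice that received C-36, a peptide of AAT, were not analysed here, nor were more than 3 of the 5 air mice that the labels speak of.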

Additional observations from a re-analysis of the deposited data

Results flagged for a closer look

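For 25 collagen genes, each group of 5 libraries was checked for a library far from the other 4, and 4 of 100 such sets held one, where chance gives about 1 in 20. Col5a1 in LPS+oxAAT replicate 5105 was at 49.7 CPM, below the other 4 at 60.4 to 64.4 CPM. Col4a4 in LPS replicate 1104 was at 331 CPM, above the others at 254 to 273 CPM. Col14a1 in LPS+nAAT replicate 4102 was at 63.2 CPM, above the others at 49.3 to 52.5 CPM. Col14a1 in LPS+oxAAT replicate 5103 was at 69.9 CPM, above the others at 53.7 to 57.3 CPM. LPS 1104, LPS+nAAT 4102 and LPS+oxAAT 5103 also had the highest summed collagen CPM of their groups, at 7050, 6970 and 5930.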

How the results depend on the processing

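Counts of called collagen genes were recomputed under each alternative, and most stayed as reported. Those that moved are given here, each with the share of all genes called in parentheses. DESeq2's Wald test gave 1 in LPS against air (6.91%), 1 in LPS+recAAT against LPS (11.3%) and 2 in LPS+recAAT against air (8.42%). A stricter filter (at least 1 CPM in at least 5 libraries) gave 1 in LPS+recAAT against LPS (10.1%). With the library set as a term there was 1 in LPS against air (5.37%) and 0 in LPS+oxAAT (1.96%) and LPS+recAAT (1.62%) against air. In the first set alone there were 0 in LPS+nAAT (4.65%) and LPS+oxAAT (1.46%) against air. A fit of only the 2 groups compared gave 0 in LPS+nAAT (5.59%) and LPS+oxAAT (2.52%) against air and 3 in LPS+recAAT against air (8.28%), which were Col11a2, Col17a1 and Col24a1. Blocking on the final digit of the mouse number (a replicate block) gave 1 in LPS against air (Col11a2, 7.95%), 1 in LPS+nAAT against LPS (Col7a1, 1.45%), 0 in LPS+oxAAT against air (3.78%) and 2 in LPS+recAAT against air (7.37%). Libraries of the same digit in different groups correlated at a median of 0.03 (42 pairs, -0.38 to 0.35), and those of different digits at -0.03 (168 pairs, -0.46 to 0.41). Correlations over 0.1 were seen in 16 and 45 of these pairs, and 7 of 23 libraries correlated best with their own digit. Whether the digit marks a true block of mice was not tested, nor was the cause of the changed counts.

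As each library was left out in turn, the count ran from 0 to 1 in LPS against air, LPS+recAAT against LPS, LPS+nAAT against air and LPS+oxAAT against air, and from 0 to 2 in LPS+recAAT against air. It was 0 to 0 in the other 6. DESeq2 size factors, no filter beyond 1 count and removal of the GC curve left every count as it was. Removal of that curve did move medians, in LPS+oxAAT against LPS from -0.09 to 0.05. Of 5543 values of 25 named collagen genes under an alternative, 16 lost and 15 gained a call and 0 called ones reversed, while 223 uncalled ones changed sign. No chain ratio passed its adjusted p with a library left out or in the first set alone, which holds no LPS+recAAT library. Depth limits the genes of a few CPM or less, such as Col24a1, whereas for genes above 50 CPM the spread between mice sets the intervals.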
